A study of Mus musculus with 4 samples.

Results

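The endothelial cells of the embryonic mouse gonad and mesonephros, the transient kidney attached to it, were examined in a droplet-based single-cell RNA-seq series. Cells were taken as endothelial where the deposited annotation named them so, which gave 1440 of 52745 cells. They comprised 875 of 23527 cells of the XY control at E11.5, 310 of 17057 of the XY miR-17~92 KO at E11.5, 157 of 8492 of the XY KO at E11.75 and 98 of 3669 of the XX control at E11.5. Each group was 1 sample, a pool of gonads with mesonephros from several embryos, so the design has no biological replicates, and cells and runs are not replicates of a condition. KO embryos carried a homozygous CRISPR/Cas9 deletion of the miR-17~92 microRNA cluster in the XY embryonic stem cell line G4, which has a hybrid C57BL/6J and 129 background, and were made from these cells by tetraploid complementation, where the host contributes extraembryonic tissue. XY controls were made in the same way from the unedited parental line. The embryos of all XY groups therefore derived from the G4 line. XX controls came from matings of C57BL/6J males with 129 females, so the XX and XY samples differ in how the embryos were made as well as in sex. The labels give the strain of every sample as C57BL/6 x 129S4/SvJae. Per the annotation and the cell name endings in the sample labels, the larger KO sample is that of E11.5, whereas the study's methods give the cell numbers of the KO samples the other way round, and the labels were followed. No control of E11.75 was analysed, and stage and deletion cannot be told apart in that sample.

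Endothelial cells line blood and lymphatic vessels. They grow by sprouting, in which tip cells lead and others follow, and they take arterial, venous or lymphatic identities under VEGF, Notch, BMP and Prox1 signals. Around the time of sex determination, vessels of the mesonephros supply the gonad, and in XY gonads endothelial cells migrate in from the mesonephros and form a testis-specific artery. The miR-17~92 cluster encodes 6 miRNAs of 4 seed families, processed from the host transcript Mir17hg, and is known for roles in growth and in endothelial sprouting.

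The mature miRNAs encoded by the deleted cluster are shown because their seeds define the sites searched for in the genes below. The authors also name a paralog, or related, cluster. Whether other loci still supplied these miRNAs or seeds in KO cells was not tested. Capitals mark the seed, bases 2 to 8. The sequences are those of RefSeq on GRCm38.p6, where all 6 lie on chromosome 14 on the plus strand.
miR-17-5p: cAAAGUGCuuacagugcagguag
miR-20a-5p: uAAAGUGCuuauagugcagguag
miR-18a-5p: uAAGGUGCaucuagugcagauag
miR-19a-3p: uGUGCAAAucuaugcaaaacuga
miR-19b-3p: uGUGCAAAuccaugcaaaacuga
miR-92a-3p: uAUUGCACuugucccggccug

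miR-17 and miR-20a share a seed, as do miR-19a and miR-19b. An 8mer site is the complement of the seed followed by an A, and on the sense strand of a 3′ UTR it reads GCACTTTA for miR-17, GCACCTTA for miR-18, TTTGCACA for miR-19 and GTGCAATA for miR-92. Of 17348 genes with an annotated 3′ UTR, 2204 held an 8mer of at least 1 family, 689 of miR-17, 282 of miR-18, 1011 of miR-19 and 442 of miR-92. A match is a description of the letters and not a site shown to be in use. The stretches of 30 bases around the sites of the 4 genes with an 8mer among the 10 that stood furthest above both controls in both KO samples are shown with the site in capitals. They lie in the GENCODE 3′ UTRs of mm10, on chromosomes 11, 14, 5 and 2 for Igfbp3, Stc1, P2rx4 and Tor1b.
Igfbp3, miR-19 site: atatgccttatTTTGCACAaaagactgcca
Stc1, miR-17 site: gtgatttggttGCACTTTAgaacatttttg
P2rx4, miR-17 site: gctctgtccaaGCACTTTAtaaggaaggag
P2rx4, miR-19 site: ggggggggtcaTTTGCACActacacacaat
Tor1b, miR-19 site: ccccttggggcTTTGCACAtttgcacctgt

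The endothelial cells held 5483986, 3208388, 1118227 and 2473911 unique molecular identifiers (UMIs) in the XY control, the KO of E11.5, the KO of E11.75 and the XX control, the order used for all values in a row of 4 below. Median UMIs per cell were 4796, 8373.5, 5343 and 17632. XX cells were much deeper, and 29 of the 98 held at least 30000 UMIs. The authors kept only XY cells under 30000 UMIs and did not apply this limit to XX cells, so the samples differ in filtering as well as in depth. The samples were read as 7 libraries, 2 technical runs each except 1 for the E11.75 KO. Between 1 and 40 cell barcodes were shared by pairs of libraries over all cells, and 0 among endothelial cells. UMIs were summed over the endothelial cells of a sample and given as CPM, counts per 1000000 UMIs of that sum, with exact 95% Poisson intervals. All intervals cover counting error only, not variation between embryos. Xist, the RNA of the inactive X chromosome, was read in the XX control alone, at 595 CPM, and the Y-linked Ddx3y in the XY samples alone, at 15.5, 21.2 and 21.5 CPM.

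Mir17hg (chr14:115042879-115046727, plus strand, mm10), the host transcript of the deleted cluster, was at 16.0 CPM (95% interval 12.9 to 19.8), 118 (106 to 130), 133 (113 to 156) and 9.70 (6.22 to 14.4). Runs gave 14.98 and 17.0 CPM in the XY control, 116 and 119 in the E11.5 KO and 9.94 and 9.51 in the XX control. All KO values lay above all control values. The log2 ratio to the XY control was 2.87 (2.53 to 3.22) in the E11.5 KO and 3.05 (2.66 to 3.45) in the E11.75 KO, and in all other cells 2.97 and 3.02. The KO samples were thus told apart from the controls by their own host gene in endothelial as in other cells. The library reads 3′ ends of polyadenylated RNA, which need not lie in the deleted segment, so this value does not measure the miRNAs.

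The 5 core markers were found at high levels in every sample. Pecam1, which encodes an adhesion molecule of endothelial junctions, was at 510, 639, 909 and 364 CPM. Cdh5, which encodes VE-cadherin, was at 656, 681, 863 and 552 CPM, and the VEGF receptor gene Kdr at 563, 500, 799 and 416 CPM. Egfl7 and Emcn, a secreted factor and a sialomucin of endothelium, lay between 994 and 1360 CPM and between 786 and 855 CPM. At least 2 UMIs of these markers were held by 89.0%, 95.2%, 98.1% and 85.7% of the endothelial cells, against 6.45%, 7.22%, 8.55% and 22.7% of all other cells. The higher share among other XX cells goes with their higher depth. Genes with the largest excess over all other cells were themselves endothelial. Flt1, a VEGF receptor that acts largely as a decoy, was 248, 330, 407 and 660 times as high in CPM as in other cells. Cd93 was 304, 457, 555 and 301 times as high and the apelin receptor gene Aplnr 296, 517, 664 and 633 times. The lymphatic growth factor receptor Flt4 was 130, 227, 105 and 211 times as high, and the angiopoietin receptor Tek 109, 122, 110 and 204 times. Thus the label fitted the markers in all 4 samples. As the clusters were made from these genes, their excess is a description.

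Endothelial cells made up 3.72% (95% Clopper-Pearson interval 3.48 to 3.97%) of XY control cells, 1.82% (1.62 to 2.03%) of the E11.5 KO, 1.85% (1.57 to 2.16%) of the E11.75 KO and 2.67% (2.17 to 3.25%) of XX control cells. The shares of both KO samples lay below those of both controls, with the XX value between the others. Runs of the XY control gave 3.07% and 4.35%, which differ by more than counting error, whereas those of the E11.5 KO gave 1.86% and 1.78% and those of the XX control 2.39% and 2.98%. Every control run lay above every KO run, although the interval of the lower XX run (1.76 to 3.18%) overlapped those of the KO runs. Among cells outside the 6 gonadal types the shares were 5.38%, 2.52%, 2.88% and 3.65%. Among cells with at least 5000 UMIs they were 6.44%, 3.24%, 3.62% and 2.04%, and the XX control was then the lowest. The position of the XX control relative to the KO samples thus turns with depth, but that of the XY control does not. Each share depends also on how many other cells were recovered from a dissection, and the pools give no estimate of that variation.

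**Figure D1:**
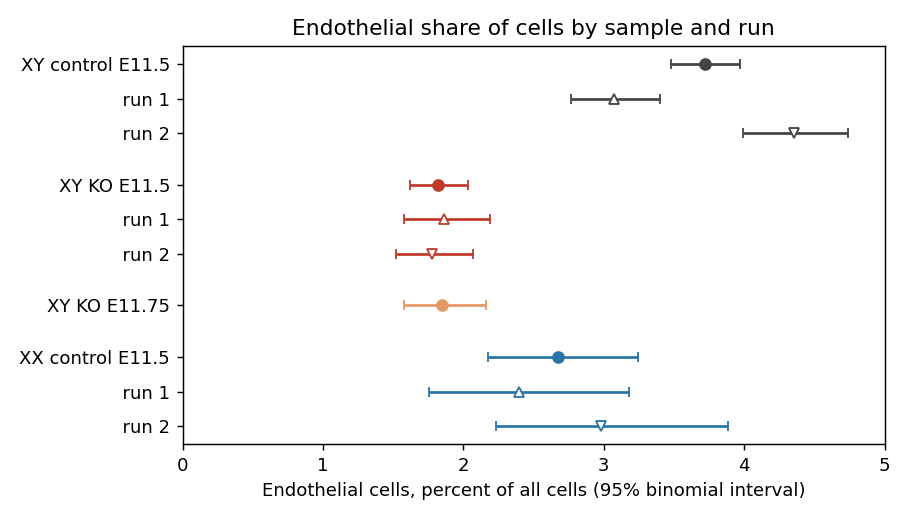
Endothelial cells as percent of all cells (x axis) for each sample (filled circles) and, where a sample had 2, each technical run (open triangles), with 95% binomial intervals. Both XY KO samples sit between 1.82 and 1.85%, the XY control at 3.72% with runs at 3.07 and 4.35%, and the XX control at 2.67%.

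To find genes that set both KO samples apart, the gap between the lower KO sample and the higher control was taken for each gene. Among 9305 genes with at least 100 UMIs over the 4 samples, 5 were at least 2-fold higher in both KO samples than in both controls (0.0537%), and 12 were at least 2-fold lower (0.129%). With edgeR's TMM factors there were 3 and 17, so the share of higher genes among them went from 29.4% to 15%. Without regard to size, both KO samples lay above both controls for 22.8% of these genes and below for 11.46%. The 5 higher genes were Mir17hg, Igfbp3, Stc1, Ramp3 and Plaur. The technical runs of a sample, which hold no variation between embryos and so are no measure for these counts, differed by more than 2-fold in 5 of 7272 genes tested in the XY control, 3 of 5217 in the E11.5 KO and 28 of 3980 in the XX control.

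Igfbp3 (chr11:7206086-7213923, minus strand), which encodes a secreted binding protein of insulin-like growth factors, was the most abundant of them. Its level was 393 CPM (377 to 410) in the XY control, 1112 (1076 to 1149) in the E11.5 KO, 1031 (972 to 1092) in the E11.75 KO and 277 (257 to 298) in the XX control. Runs gave 398 and 389 CPM in the XY control, 1174 and 1048 in the E11.5 KO and 269 and 283 in the XX control. No control run came near a KO run. Log2 ratios to the XY control were 1.50 (1.42 to 1.58) in the E11.5 KO and 1.39 (1.29 to 1.49) in the E11.75 KO. In all other cells the same ratios were 0.42 (0.40 to 0.43) and 1.004 (0.98 to 1.02), so the ratio at E11.5 was larger in endothelial cells by more than counting error. Igfbp3 is not an endothelial gene alone. It was at 791, 848, 1655 and 473 CPM in the mesonephric mesenchyme, the cells annotated as mesonephros, where the E11.5 KO lay close to its control. In the epithelial cells of the mesonephros, its level was 1542, 1634, 2602 and 919 CPM. The E11.5 KO endothelium thus stood out from the neighbouring cell types in its ratio, not in its level.

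Within the endothelium, Igfbp3 was highest in cells with arterial markers. Cells were thinned to 3000 UMIs, which kept 611, 276, 143 and 80 cells and left out 264, 34, 14 and 18 shallower ones. Cells with at least 2 UMIs over 10 arterial markers, Igfbp3 not among them, made up 38.5%, 42.8%, 52.4% and 27.5%. Thinned to 2000 UMIs these shares were 29.1%, 28.6%, 35.7% and 13.98%, and the E11.5 KO then lay no higher than the XY control, while without thinning they were 50.9%, 69.7%, 71.3% and 60.2%. In the mesonephric mesenchyme, which is not endothelial, the thinned shares were 7.00%, 7.87%, 9.07% and 5.07%, at median depths of 3573, 4586, 3293 and 14477.5 UMIs. Of the XY control cells, 157 had 1 marker UMI and 71 exactly 2, and of the E11.5 KO cells 61 and 45, so many lay next to the limit. In cells with these markers Igfbp3 was at 728 CPM (666 to 793), 2161 (2011 to 2320), 1720 (1553 to 1900) and 788 (588 to 1033). In cells without them it was at 239 CPM (212 to 270), 658 (587 to 735), 412 (328 to 510) and 178 (121 to 253). KO values lay above those of both controls in both kinds of cell, and arterial cells were higher in every sample. An Igfbp3 UMI was held by 45.5%, 75.4%, 64.3% and 36.2% of all thinned endothelial cells.

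**Figure D2:**
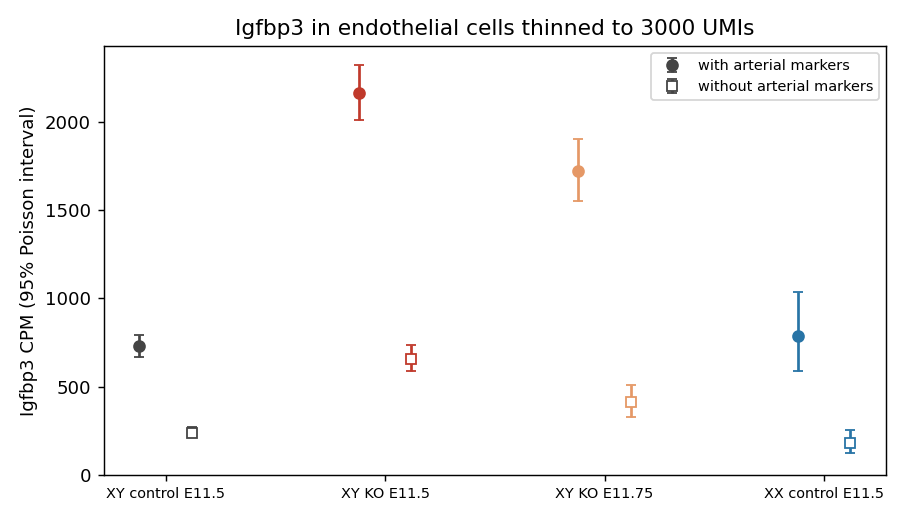
Igfbp3 in CPM (y axis, starting at 0, 95% Poisson intervals) in endothelial cells thinned to 3000 UMIs, split into cells with at least 2 UMIs of arterial markers (filled circles) and cells without (open squares), by sample. Both KO samples lie above both controls in either kind of cell, 2161 and 1720 against 728 and 788 CPM with arterial markers.

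Stc1 (chr14:69029238-69041804, plus strand) encodes the glycoprotein hormone stanniocalcin. It was at 15.1 CPM (12.1 to 18.8), 41.8 (35.0 to 49.5), 38.5 (27.8 to 51.8) and 11.72 (7.85 to 16.8), with runs of 12.7 and 17.4, 39.4 and 44.2, and 12.7 and 10.97 CPM. KO and control runs did not overlap. Log2 ratios to the XY control were 1.46 (1.06 to 1.88) and 1.35 (0.78 to 1.89), against 0.10 and 1.11 in all other cells. At E11.5 the ratio in the other cells was thus near 0. A Stc1 UMI was held by 3.93%, 11.6%, 9.09% and 1.25% of thinned endothelial cells, and by 4.00%, 4.27%, 8.27% and 2.40% of thinned mesonephric mesenchyme. The control shares lay no higher than in the mesenchyme.

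Ramp3, which encodes a partner of the adrenomedullin receptor, was at 15.5, 32.7, 35.8 and 10.1 CPM. Its log2 ratios were 1.08 (0.65 to 1.51) and 1.22 (0.63 to 1.76), beside -0.04 and -0.00 in all other cells. Plaur, the gene of the urokinase receptor, was at 10.2, 29.6, 20.6 and 9.30 CPM, with ratios of 1.53 (1.04 to 2.04) and 1.03 (0.24 to 1.73). The calls of Ramp3 and Plaur depended on the processing. With TMM factors their gaps were 0.99 and 0.78 on the log2 scale, under the 2-fold limit, and without cells of at least 30000 UMIs 0.70 and 0.49. Ramp3 also missed the limit without run 1 of the XY control (0.85) or of the E11.5 KO (0.88), and Plaur without run 2 of the XY control (0.84) or run 1 of the XX control (0.99). Over 14 alternatives the lowest gaps of Igfbp3 and Stc1 were 1.16 and 1.13. The next 5 genes of the order fell short of 2-fold. They were Megf6 (22.4, 43.9, 51.9 and 15.8 CPM), the ATP-gated channel gene P2rx4 (6.20, 11.84, 15.2 and 5.66 CPM), the torsin gene Tor1b (30.8, 58.6, 60.8 and 21.8 CPM), the fibrillin gene Fbn2 (101, 190, 243 and 73.2 CPM) and the potassium channel gene Kcna5 (10.2, 18.7, 18.8 and 8.49 CPM). Fbn2 and Tor1b were also higher in the other KO cells, with ratios of 0.98 and 1.40 for Fbn2 and 0.78 and 1.13 for Tor1b.

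**Figure D3:**
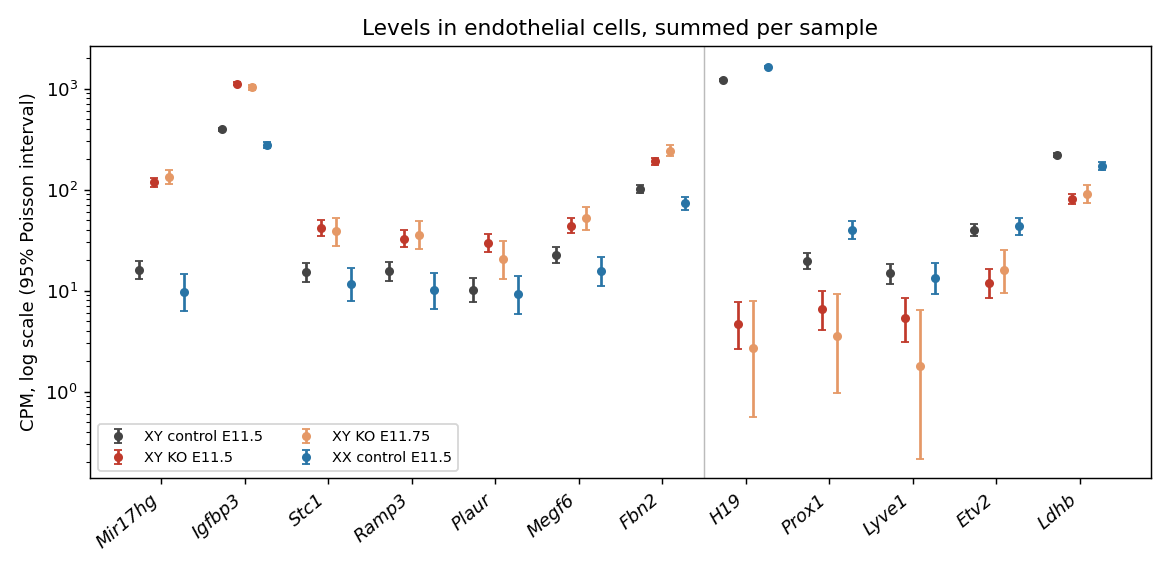
CPM (y axis, log scale, 95% Poisson intervals) of 12 genes in the summed endothelial cells of the 4 samples, with genes higher in both KO samples left of the line and genes lower in both to its right. Mir17hg, Igfbp3 and Stc1 are separated by sample group, and H19 drops from 1206 and 1635 CPM in the controls to 4.68 and 2.68 CPM.

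The gene with the largest difference of all was H19 (chr7:142575529-142578143, minus strand), an imprinted long non-coding RNA expressed from the maternal allele. It was at 1206 CPM in the XY control, 4.68 (2.62 to 7.71) in the E11.5 KO, 2.68 (0.553 to 7.84) in the E11.75 KO and 1635 in the XX control. These levels rest on 6612, 15, 3 and 4045 UMIs. Log2 ratios to the XY control were -7.96 (-8.85 to -7.29) and -8.59 (-11.09 to -7.26), beside -5.75 and -7.16 in all other cells. The loss was thus shared with the other cell types of the KO samples. In the mesonephric mesenchyme H19 was at 790, 7.77, 3.798 and 1210 CPM. The sources used here do not say whether both KO samples came from 1 edited clone, and a property of the edited cells cannot be told apart from an effect of the deletion. Igf2, the neighbouring imprinted gene, was at 58.4, 85.4, 106 and 40.8 CPM. It lay above both controls in both KO samples, without reaching 2-fold over the XY control in either. Of 21 insulin-like growth factor and imprinted genes tested, Igfbp3 was the 1 past 2-fold upwards and H19 the 1 downwards at E11.5, against 0.188% and 0.996% of all genes, with a median of -0.20.

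Prox1 and Lyve1, both genes of lymphatic endothelium, were among the lowest in the KO. Prox1 (chr1:190118035-190170714, minus strand), the transcription factor that specifies lymphatic endothelium, was at 19.7 CPM (16.2 to 23.8), 6.55 (4.05 to 10.0), 3.58 (0.975 to 9.16) and 40.0 (32.5 to 48.7). Runs gave 20.4 and 19.1 CPM in the XY control, 4.31 and 8.85 in the E11.5 KO and 39.8 and 40.2 in the XX control. Control and KO runs did not overlap. Log2 ratios to the XY control were -1.56 (-2.34 to -0.91) and -2.30 (-4.36 to -1.06), beside -0.63 and -0.13 in all other cells, where Prox1 was high in the cells annotated as adrenal gland and adenosympathic. The KO values rest on 21 and 4 UMIs. In the XX control, 21 of 99 UMIs lay in 1 cell, and without it the level was 33.3 CPM. In thinned cells a Prox1 UMI was held by 5.73% (4.02 to 7.88%), 2.17% (0.802 to 4.67%), 1.40% (0.170 to 4.96%) and 6.25% (2.06 to 14.0%) of endothelial cells, against 0.733%, 0.600%, 0.933% and 1.20% of mesonephric mesenchyme. Before thinning, 7.66%, 5.16%, 2.55% and 22.4% of endothelial cells held one. The interval of the E11.75 share included the share in the mesenchyme, so Prox1-positive cells could not be told from background there, and although that of E11.5 lay above it, thinning to 2000 UMIs gave 1.41% (0.386 to 3.58%) there, which included the 0.400% of its mesenchyme.

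Lyve1, the hyaluronan receptor gene of lymphatic endothelium and of some macrophages, was at 14.8, 5.30, 1.79 and 13.3 CPM, on 81, 17, 2 and 33 UMIs. Its log2 ratios were -1.45 (-2.33 to -0.71) and -2.73 (-6.12 to -1.15), whereas those of all other cells were 0.94 and 3.07. With the mean of CPM over cells its gap was 0.64, under 2-fold. Of the cells with a Prox1 UMI before thinning, 15 of 67, 0 of 16, 1 of 4 and 13 of 22 also held a Lyve1 UMI. For the 0 of 16 in the E11.5 KO, the limit of 3 counts allows a share of up to 18.8%. Of the cells without a Prox1 UMI, 36 of 808, 16 of 294, 1 of 153 and 4 of 76 held a Lyve1 UMI. As XX cells were deeper, these counts are not at equal depth. Macrophage markers summed to 32.3, 16.5, 10.7 and 33.1 CPM over 11 genes in the endothelial cells, lower in both KO samples as well. Of these 11 genes 0, 5, 7 and 3 were at 0. Their part in the Lyve1 values was not tested. Flt4 and Mmrn1 did not follow. The VEGF-C receptor gene Flt4 was at 148, 152, 183 and 101 CPM, and the multimerin gene Mmrn1 at 125, 130, 105 and 132 CPM. Of the 7 lymphatic genes listed, 3 had enough UMIs in the comparison of the E11.5 KO with the XY control, and Prox1 alone was past 2-fold, where 0.996% of all genes were lower, with a list median of 0.04. After thinning to 3000 UMIs, cells with at least 2 UMIs over Prox1, Lyve1, Pdpn and Flt4 made up 12.1%, 10.5%, 16.8% and 8.75%. These shares did not separate KO samples from controls. Flt4 was far above Prox1 and Lyve1 in level. Before thinning it was held by 46.7%, 65.0%, 63.4% and 53.9% of the cells without a Prox1 UMI. The shares thus largely read Flt4 and do not bear on the levels of Prox1 and Lyve1.

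Of the remaining low genes, Sqor, which encodes a mitochondrial sulfide oxidase, was at 15.3, 4.36, 3.58 and 14.96 CPM. Cdk5rap1, a modifier of mitochondrial tRNA, was at 16.6, 4.99, 1.79 and 11.3 CPM, and the ciliary gene B9d2 at 18.1, 8.73, 6.26 and 21.4 CPM. B9d2 was as low in the other KO cells, with ratios of -1.17 and -1.46, and had a gap of 0.97 with TMM factors. Without run 1 of the E11.5 KO the gaps of B9d2 and Cdk5rap1 were 0.71 and 0.80, under 2-fold, and without run 1 of the XX control that of Cdk5rap1 was 0.94. The neighbour of B9d2 on chromosome 7, the growth factor gene Tgfb1, was at 251, 132, 97.5 and 186 CPM and had ratios of -1.71 and -1.22 in the other cells. Dppa5a, a gene of pluripotent and germ cells, was at 32.8, 5.61, 8.94 and 19.4 CPM and moved likewise in the other cells, with ratios of -1.50 and -1.01. Its gap was under 2-fold with a prior count of 5 (0.68), in cells with at least 2 core marker UMIs (0.85) and without run 1 of the XX control (0.81). The pericyte gene Rgs5 was at 11.67, 1.87, 4.47 and 10.9 CPM, with XX runs of 4.52 and 16.1 CPM, the lower of which lay at the level of the E11.75 KO. Its gap was 0.49 with a prior count of 5, under 2-fold. Germ cell markers, Dppa5a among them, summed to 101, 59.5, 99.3 and 59.4 CPM over their list. Of these sums, 41.9, 48.6, 71.5 and 29.5 CPM came from 1 gene that the blood progenitor list also holds. The germ cell sums thus largely read a gene that is not one of germ cells alone. Pericyte markers, Rgs5 among them, summed to 115, 83.5, 102 and 93.0 CPM. The part of germ cells and pericytes in Dppa5a and Rgs5 was not tested.

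Some of the 12 low genes rested on single cells. Etv2, the transcription factor gene that starts endothelial fate, was at 40.1, 11.84, 16.1 and 43.7 CPM, but its 220, 38, 18 and 108 UMIs lay in 40, 6, 5 and 10 cells, with 93 of the XX UMIs in 1 cell. Without the highest cell of each sample Etv2 was at 30.7, 2.19, 8.09 and 6.11 CPM, and the XX control lay below the E11.75 KO. Lor was at 18.2, 5.30, 2.68 and 20.6 CPM, and without its highest cell the XX value was 6.63 CPM. The embryonic globin genes Hba-x (473, 133, 149 and 1505 CPM) and Hbb-bh1 (74.4, 15.6, 14.3 and 188 CPM) had 3389 of 3724 and 431 of 466 XX UMIs in 1 cell, without which the XX control was at 139 and 14.5 CPM, as low as the KO. When each gene was recomputed without its highest cell in each sample, an alternative chosen after seeing the data, 6 genes were higher and 13 lower. Igfbp3, Stc1, Ramp3, Plaur, H19, Prox1, Lyve1, Sqor, Cdk5rap1, B9d2, Dppa5a and Rgs5 were among them, but Etv2, Lor and the globins were not.

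The E11.5 KO was then compared with the XY control of the same stage. Of 8532 genes tested, which held at least 100 UMIs in all, 16 were at least 2-fold higher (0.188%) and 85 at least 2-fold lower (0.996%), with a median log2 ratio of -0.03. Tip cell genes, which mark the leading cells of sprouts, had the highest median of the endothelial lists. Of 10 tip cell genes tested, 3 were at least 2-fold higher and 0 lower, and their median log2 ratio was 0.41. Esm1, a proteoglycan gene of tip cells, was at 20.1, 45.5, 19.7 and 22.6 CPM, with a log2 ratio of 1.18 (0.81 to 1.55). Apln, the apelin gene, was at 14.4, 32.1, 23.3 and 17.4 CPM, with a ratio of 1.15 (0.72 to 1.60). Plaur was the third. The Notch ligand gene Dll4, which tip cells express, was at 50.3, 78.9, 93.0 and 30.3 CPM and the Notch target Nrarp at 49.1, 84.5, 60.8 and 40.4 CPM. In both KO samples, 7 of 10 tip cell genes lay above both controls at any size, against 22.8% of all genes. After thinning, 9.17% (7.00 to 11.74%), 16.7% (12.5 to 21.6%), 20.3% (14.0 to 27.8%) and 6.25% (2.06 to 14.0%) of cells held at least 2 UMIs over 5 tip cell markers, and 0.467%, 1.07%, 0.600% and 0.600% of mesonephric mesenchyme. Before thinning the endothelial shares were 19.4%, 40.6%, 33.8% and 38.8%. Of the thinned XY control cells 118 had 1 such UMI and 37 exactly 2, and of the E11.5 KO cells 58 and 28. The control and KO intervals at E11.5 do not overlap, whereas the XX interval overlaps that of the E11.5 KO. Thinned to 2000 UMIs, the shares were 4.76% (3.32 to 6.58%), 9.89% (6.68 to 13.98%), 9.09% (5.06 to 14.8%) and 6.45% (2.40 to 13.5%). The XX share then lay above that of the XY control, and the E11.75 interval overlapped those of both controls. The same genes had a median of -0.21 in all other cells, where they are low.

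Genes of glycolysis and the response to low oxygen lay above the median gene in the E11.5 KO and below it in the E11.75 KO. The median log2 ratio of 24 genes tested was 0.39 at E11.5, with 2 at least 2-fold higher and 1 lower, against 0.188% and 0.996% of all genes, and -0.15 at E11.75 over 23 genes, where the median gene was at 0.16. Egln3, a prolyl hydroxylase gene, was at 16.0, 39.6, 19.7 and 9.30 CPM. Slc16a3, a lactate exporter gene, was at 29.4, 65.8, 17.0 and 17.4 CPM. The lower gene was Ldhb, a lactate dehydrogenase subunit, at 220, 80.7, 91.2 and 171 CPM, and it was low in both KO samples. Its runs differed, with 186 and 250, 61.5 and 100.5, and 102 and 227 CPM, and the lower XX run came close to the higher KO run. All other cells gave medians of 0.34 and -0.11, so the sample difference was not particular to endothelium. Slc16a3 likewise had a ratio of 1.11 in other cells of the E11.5 KO.

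Genes of the G2 and M phases lay slightly higher in the E11.5 KO. All 24 were above the median gene, none past 2-fold, with a median log2 ratio of 0.38. At E11.75 their median was 0.04, where the median gene was at 0.16, and 8 of 24 lay above the median gene. With TMM factors the values were -0.19 for the list and -0.07 for the median gene. In the other cells of the samples the medians were 0.00 and -0.02. The 24 S phase genes had medians of 0.01 and -0.10.

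The other endothelial lists had 0 to 2 genes past 2-fold at E11.5, where 0.188% of all genes were higher and 0.996% lower. Of 8 VEGF and angiopoietin receptor genes 0 passed 2-fold, with a median of 0.01. Of 12 arterial genes 1 did, Igfbp3, and the median was -0.27. The gap junction genes of arteries, Gja4 (117, 70.4, 76.9 and 110 CPM) and Gja5 (36.7, 22.1, 31.3 and 12.9 CPM), were among the lowest, opposite to Igfbp3 and Dll4 of the same list. Of 9 venous genes 0 passed 2-fold (median -0.16), and of 13 Notch pathway genes 1, the ligand gene Dll1, was lower at 18.4, 8.73, 20.6 and 10.5 CPM (median -0.17). Among 20 endothelial transcription factor genes Etv2 alone was lower, with a median of -0.17. The 18 junction genes and 17 surface receptor genes had none past 2-fold and medians of 0.05 and 0.10. Of 5 genes tested from a list of VEGF, angiopoietin and other vascular ligands, only Apln, which is neither and is also in the tip cell list, was past 2-fold. The 20 genes of BMP and TGF-beta signalling had 0 past 2-fold and a median of -0.16, with the receptor gene Tgfbr2 at 164, 217, 318 and 131 CPM and Tgfb1 the lowest. The 16 immediate early and heat shock genes, which respond to dissociation, had 2 lower and a median of -0.22, with the AP-1 factor gene Fosb at 57.3, 19.01, 4.47 and 6.47 CPM. Fosb had log2 ratios of -1.58 and -3.54 here and of 0.30 and 1.41 in all other cells.

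Genes of the vascular basement membrane lay above both controls in both KO samples for 12 of 14 tested, against 22.8% of all genes. None was past 2-fold at E11.5, where the median log2 ratio was 0.23. At E11.75, 3 of 14 were at least 2-fold higher, against 2.26% of all genes, and the median was 0.77, which is 0.61 above the median gene. With TMM factors that median was 0.54 and the median gene was at -0.07, so the list lay as far above it as before. The highest of the 14 ratios, 1.20 before, fell under the 2-fold limit. The type IV collagen genes Col4a1 (1036, 1327, 1750 and 749 CPM) and Col4a2 (563, 738, 970 and 416 CPM) gave ratios of 0.36 and 0.39 at E11.5 and 0.76 and 0.79 at E11.75. The nidogen gene Nid2 was at 116, 154, 248 and 68.7 CPM and Sparcl1, a matricellular protein gene, at 176, 252, 390 and 113 CPM. Agrin (Agrn) differed from these, at 94.5, 82.0, 217 and 53.8 CPM. The other cells gave medians of 0.15 and 0.56 for the same list. The XX control was below the XY control for all 14, with a median of -0.47.

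Levels of other cell types in the endothelial sums moved between samples. Mesenchyme markers summed to 330, 190, 487 and 268 CPM over 10 genes in endothelial cells, against 1813 to 3937 CPM in all other cells. Coelomic and gonadal somatic markers summed to 196, 102, 247 and 112 CPM, against 1083 to 1733 CPM. Both sums were lowest in the E11.5 KO and highest in the E11.75 KO, and none of the 20 markers was at 0 in any sample. Their list medians were -0.77 and -0.97 in the E11.5 KO. In the E11.75 KO they were 0.60 and 0.34. Erythroid genes summed to 2043, 605, 1139 and 5579 CPM, with 5 of 7 genes at least 2-fold lower in the E11.5 KO, against 0.996% of all genes, and a median of -1.61. At E11.75, 2 of the 7 were higher and 2 lower, against 2.26% and 0.845% of all genes. The authors also filtered XY cells on beta globin content, with a limit that differed between samples and was lowest for the E11.5 KO and highest for the XY control, the same order as these XY sums. Nephric markers summed to 66.4, 46.1, 86.7 and 48.9 CPM and blood progenitor markers to 64.0, 65.1, 96.6 and 42.8 CPM. The part of these cells or their free RNA in the differences between samples was not tested. With 1 pool per group, fewer cells of a type and less RNA per cell cannot be told apart in any of these sums.

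**Figure D4:**
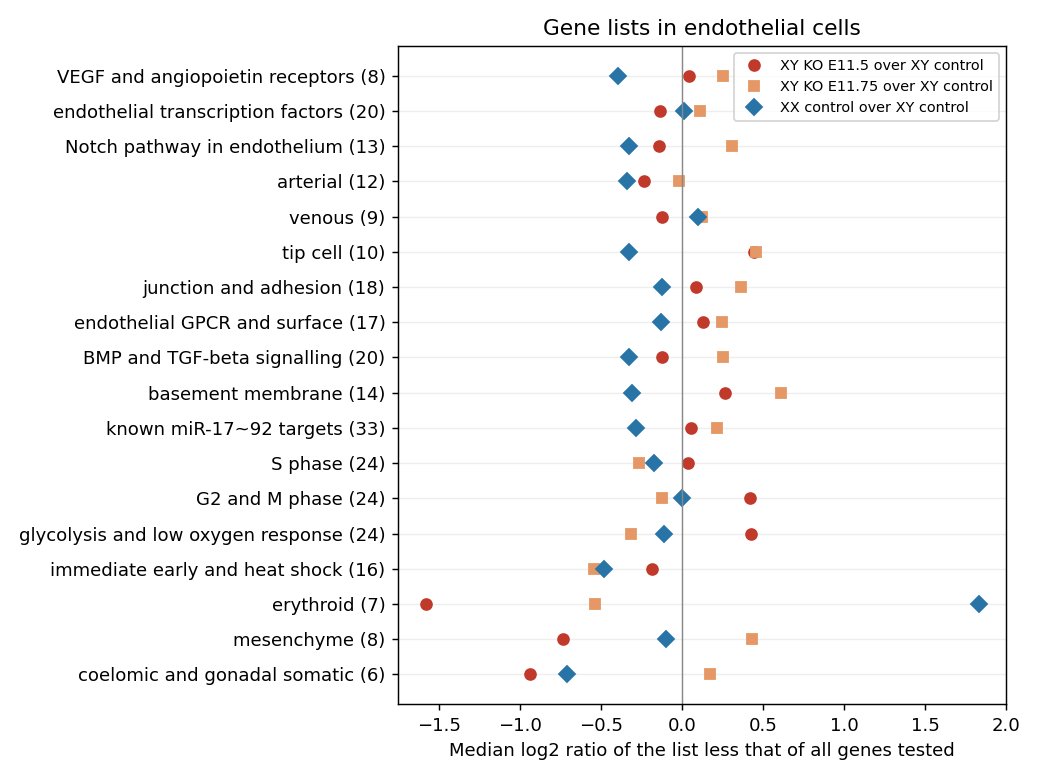
Median log2 ratio of each gene list less the median of all genes tested (x axis) for the E11.5 KO (circles), the E11.75 KO (squares) and XX control (diamonds), each over the XY control, with the number of genes tested at E11.5 in parentheses. Tip cell genes lie right of 0 in both KO samples, and the glycolysis and mesenchyme lists lie on opposite sides of 0 in the KO samples. The XX erythroid value is 1.83, with most XX UMIs of Hba-x, Hbb-bh1 and Hbb-y in 1 cell each.

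The E11.75 KO was compared with the same XY control, which the E11.5 KO shares, so the comparisons are not independent. Of 7927 genes tested, 179 were at least 2-fold higher (2.26%) and 67 at least 2-fold lower (0.845%), and the median log2 ratio was 0.16. With TMM factors the median became -0.07 and the counts turned to 46 higher and 188 lower, so the share of higher genes among those past 2-fold moved from 72.8% to 19.7%. The direction of single small differences in this sample therefore depends on scaling. Gm42418, a non-coding gene overlapping ribosomal RNA, was at 3875, 3306, 10490 and 4060 CPM, and with totals that leave it and the mitochondrial, ribosomal protein and globin genes out the counts stayed within 1.5 times. Junction and adhesion genes had 4 of 19 at least 2-fold higher and a median of 0.53. Jam2, a junctional adhesion molecule gene, was at 9.30, 8.73, 44.7 and 5.66 CPM, and the surface glycoprotein gene Cd93 at 337, 344, 763 and 214 CPM. The adhesion molecule gene Mcam was at 82.4, 131, 191 and 50.5 CPM. Aplnr was at 675, 662, 1239 and 333 CPM, with log2 ratios of -0.03, 0.88 and -1.02 to the XY control. Of the 21 insulin-like growth factor and imprinted genes, 5 were higher and 1 lower, with a median of 0.52. Notch genes had a median of 0.47, and Dlk1 at 45.2, 34.6, 103 and 23.4 CPM was past 2-fold, though not with TMM factors. VEGF and angiopoietin receptor genes had a median of 0.42 with 0 past 2-fold. With TMM factors these medians fell to 0.30 for junction, 0.29 for imprinted, 0.24 for Notch and 0.19 for receptor genes. The median gene fell by the same shift, from 0.16 to -0.07, so their distances from it did not change. Between the KO samples, the genes furthest apart among those with at least 200 UMIs were higher at E11.75 for the zinc finger factor gene Zbtb20 (30.2 and 106 CPM at E11.5 and E11.75), the osmotic stress factor gene Nfat5 (83.5 and 293 CPM), the interferon-induced Rsad2 (38.3 and 127 CPM), Igfbp5 (62.3 and 203 CPM) and the matrix protein gene Ecm1 (30.9 and 99.3 CPM). Lower at E11.75 were Slc16a3 (65.8 and 17.0 CPM), Hikeshi, a nuclear import factor gene (95.4 and 32.2 CPM), Kcne3, a potassium channel subunit gene (138 and 50.1 CPM), and the mitochondrial chaperone cofactor gene Grpel1 (207 and 88.5 CPM), with Gm47283 (468 and 197 CPM) uncertain because a gene annotated on the Y chromosome was also read at 138 CPM in XX cells. Igfbp5 and Zbtb20 had log2 ratios of 1.47 and 1.12 to the XY control in all other cells too, beside 1.52 and 1.46 in endothelium.

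The XX control was compared with the XY control of the same stage. Of 8218 genes tested, 13 were at least 2-fold higher (0.158%) and 106 at least 2-fold lower (1.29%), with a median of -0.16. TMM factors moved the median to -0.02 and gave 19 higher and 64 lower, so the share of higher genes went from 10.9% to 22.9%. The XX values rest on 98 cells. With globin genes passed over, the highest apart from Xist among genes of at least 200 UMIs were Prox1 with a log2 ratio of 1.02 (0.61 to 1.43), which fell under 2-fold without 1 XX cell as described above, the linker histone gene Hist1h1b (88.8 and 177 CPM in XY and XX), the mitochondrial co-chaperone gene Dnajc19 (43.9 and 84.1 CPM) and Ulk4 (52.3 and 95.4 CPM). The lowest was Tpm3-rs7 (121 and 4.45 CPM), a copy of a tropomyosin gene that may share reads with its parent. Mid1, which spans the pseudoautosomal boundary of the mouse X chromosome, was at 102 and 8.89 CPM and had a log2 ratio of -2.94 in all other cells, beside -3.49 in endothelium. Fosb (57.3 and 6.47 CPM), Gja5 (36.7 and 12.9 CPM) and the amino acid transporter gene Slc38a4 (94.1 and 34.8 CPM) followed. The low level of Gja5 rested on run 2 of the XX control, with 2.19 CPM there and 26.2 CPM in run 1. Most endothelial lists lay below the XY control, with medians of -0.49 for tip cell, -0.50 for arterial and -0.56 for VEGF and angiopoietin receptor genes. All 7 erythroid genes tested were at least 2-fold higher, but for Hbb-y 5875 of 6668 UMIs lay in 1 cell, without which it was at 329 CPM, below the 1171 CPM of the XY control treated likewise. Sex, breeding, depth and filtering of cells cannot be told apart in this comparison.

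Finally, genes with an 8mer site of the cluster were compared with genes without one. Among genes tested for the gap between KO samples and controls, 1357 of 9005 with a 3′ UTR held an 8mer (15.1%). Of the 10 furthest above the controls, 9 had a 3′ UTR and 4 of these an 8mer, namely Igfbp3, Stc1, P2rx4 and Tor1b with the sites shown above. Of the 10 furthest below, 9 had a 3′ UTR and 0 of these an 8mer. These counts were not matched for 3′ UTR length, with which the ratios of genes without a site also moved, as given below. The Igfbp3 site lay at bases 42 to 49 of a 3′ UTR of 1435 bases and the Stc1 site at bases 2581 to 2588 of 3301. In the E11.5 KO, the median log2 ratio of 1244 genes with an 8mer was -0.03, equal to that of the other genes tested, with a difference of 0.005. By family the differences were 0.05 for miR-17, -0.05 for miR-18, 0.01 for miR-19 and -0.03 for miR-92. Genes were then split into 3 classes of 3′ UTR length, since longer UTRs hold more sites. The differences were 0.12 over the shortest, 0.04 over the middle and 0.03 over the longest class.

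In the E11.75 KO the difference was 0.25 over all genes, from medians of 0.37 and 0.12. There the medians of genes without a site were -0.14, 0.17 and 0.35 from the shortest to the longest class, and within classes the differences were 0.25, 0.10 and 0.08. In the XX control, which carries the cluster, the medians of genes without a site were -0.02, -0.18 and -0.27 in the same order. The differences within classes were -0.09, -0.04 and -0.05 there. Genes with a site thus lay above the others of their length class in both KO samples and below in the XX control, by small amounts without an estimate of variation between samples. Genes were not matched for length within a class, and the part of length in these differences was not tested. A list of genes known as targets of the cluster had 33 members tested at E11.5, 0 past 2-fold and a median of 0.02, and 31 at E11.75, 2 of them higher, against 2.26% of all genes, and a median of 0.38, where the median gene was at 0.16. With TMM factors that median was 0.15 and the median gene was at -0.07, so the list lay as far above it as before. All other cells gave 0.44, where their median gene was at 0.16. At E11.5, 18 of the 33 lay above the median gene and 15 below, with log2 ratios from -0.98 to 0.89. Genes with a site did not all move alike. Klf2, with a miR-92 site, had a gap of -0.23, so the KO samples did not both lie above both controls. Itga5, also with a miR-92 site, had a gap of 0.22. Ccnd1, which encodes the G1 cyclin D1 and holds a miR-19 site, was at 230, 388, 527 and 183 CPM, with log2 ratios of 0.75 (0.64 to 0.87) and 1.19 (1.05 to 1.34), beside 0.42 and 0.55 in all other cells. Tgfbr2, with a miR-17 site, gave 0.40 and 0.96.
Ccnd1, miR-19 site: acagtaggtaaTTTGCACAcctctggctct
Tgfbr2, miR-17 site: caataacgtttGCACTTTAttaatgcctgt

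**Figure D5:**
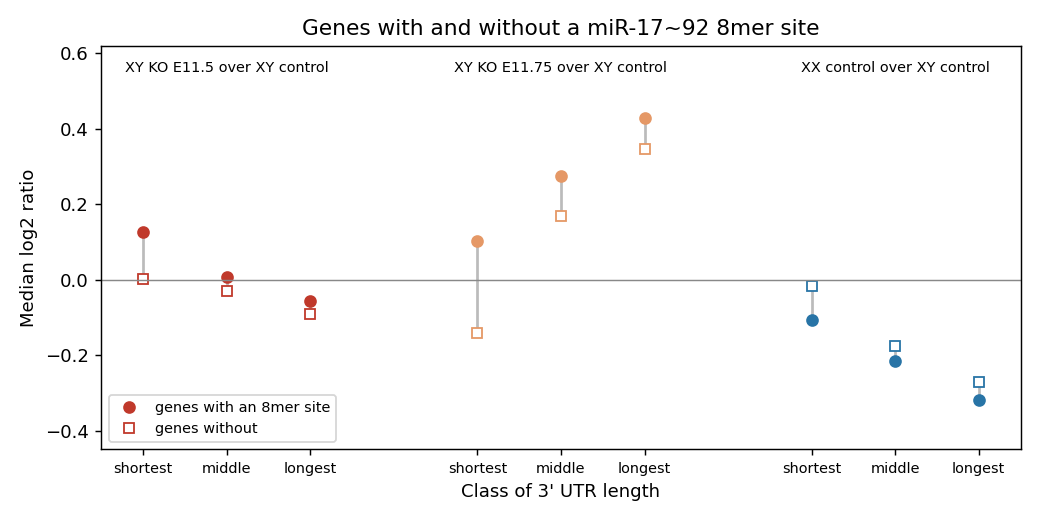
Median log2 ratio (y axis) of genes with an 8mer site of the cluster (filled circles) and of genes without (open squares), by class of 3′ UTR length, for the 3 comparisons with the XY control. Filled points lie above open ones in every class of both KO comparisons, by 0.03 to 0.25, and below them in the XX comparison.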

How the data were processed

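Gonads with mesonephros were dissociated, fixed in methanol and read with 10x Genomics 3′ kits. According to the labels, the study's methods and the submitters' processing notes, the authors used Cell Ranger 6.1.1 with mm10 to count reads, and Seurat to annotate cells. Raw UMI counts were deposited as a table of cells by genes, together with the mitochondrial and beta globin percent of each cell as the authors computed them. The authors filtered XY cells on those percent values, UMIs and genes, and the XX cells by dropping poor clusters, which changes the depth and globin content of the cells kept. Doublets were taken out by the authors with DoubletFinder, and no further cell was dropped here.

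UMIs of the cells annotated as endothelial were summed per sample, and CPM is a gene's sum over the total of all genes. Since a group was 1 sample, no test was made. Exact 95% intervals belong to CPM (Poisson), shares (Clopper-Pearson) and log2 ratios (binomial). The log2 ratios themselves used a prior count of 0.5, whereas their intervals came from the raw counts without it. Genes needed at least 100 UMIs over the samples compared, and past 2-fold is a rule of size, not a test. The scripts for ratios and intervals were tested on simulated data. Shares used cells thinned to 3000 UMIs. For a count of 0, 3 counts are the limit it allows. Gene positions and 3′ UTRs (the longest of each gene, spliced, sense strand) came from GENCODE for mm10, with 98.6% of 21495 symbols found, and miRNAs from RefSeq on GRCm38.p6. TMM factors came from edgeR 4.0.16 in R 4.3.3. Other values came from Python 3.11.15 with numpy 2.4.6, pandas 2.3.3 and scipy 1.17.1.

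The cells, the 27 gene lists and the alternatives were chosen with earlier results of these data known. Named genes were the core markers and Mir17hg, the 2 highest and 2 lowest of each list in the E11.5 comparison together with list members past 2-fold in both KO samples over both controls, the 10 at each end of the gap between KO samples and controls, the 5 at each end for XX over XY and between the KO samples with at least 200 UMIs, and the 15 genes with the largest excess over other cells among those with at least 1000 UMIs. The last 3 of these rules passed over mitochondrial, ribosomal protein and globin genes. Col4a1, Col4a2, Jam2, Dlk1, Dnm3, Ppm1l, Frem1, Slfn5, Ddx3y, Gm42418 and the globins were named after their values were seen. Venous marker shares are not compared, as many cells of the mesonephric mesenchyme held such markers too. In the XY control, thinned to 3000 UMIs, these were 72.6% of the mesenchyme and 82.0% of endothelial cells.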

Additional observations from a re-analysis of the deposited data

Results flagged for a closer look

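Both KO samples differed from the XY control in opposite directions for some lists and genes, and these differences between the KO samples were not tested. The glycolysis and low oxygen list had a median log2 ratio, less that of all genes, of 0.43 at E11.5 and -0.31 at E11.75. The mesenchyme list gave -0.73 and 0.44. Among single genes past 2-fold on both sides, Dnm3, which encodes a dynamin, gave -1.72 and 1.25, Ppm1l -1.02 and 1.40, Frem1, which encodes an extracellular matrix protein, -1.03 and 1.11, Pdgfra, a receptor gene of mesenchyme, -1.41 and 1.06, and Slfn5 -1.36 and 1.42. With TMM factors Ppm1l, Frem1 and Pdgfra were no longer past 2-fold on both sides, whereas Dnm3 and Slfn5 were. The KO samples differ in stage, depth and number of runs, which cannot be told apart here.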

How the results depend on the processing

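No paired analysis was possible because each group had 1 sample. Of 125 values of the main results under alternatives, 70 stayed within 1.5 times the count or within the interval, and of 780 of single genes 680 did. Of 16 shares of cells with state markers, 15 moved when cells were thinned to 2000 UMIs. All counts are of genes past 2-fold over the XY control, unless both KO samples over both controls are named, and where no cause is given the cause was not tested. TMM factors gave 46 higher and 188 lower at E11.75, 64 lower in XX, 3 higher in both KO samples, and turned Egfl7 at E11.75 to -0.079. A prior count of 5 gave 27 lower at E11.75 and 53 lower in XX. A minimum of 50 UMIs, which tests more genes, gave 205 lower at E11.5, 329 higher and 120 lower at E11.75, 31 higher and 223 lower in XX, and 11 higher in both KO samples. A minimum of 500, which tests fewer, gave 2 higher and 12 lower at E11.5, 31 higher and 8 lower at E11.75, 7 higher and 9 lower in XX, and 2 higher and 3 lower in both KO samples. Without cells of 30000 UMIs or more, XX had 211 lower and both KO samples 3 higher. The mean of CPM over cells gave 149 lower at E11.5, 308 higher and 132 lower at E11.75, 25 higher and 611 lower in XX and 8 higher in both KO samples, and turned Cavin2 at E11.5 to 0.21 and Emx2 at E11.75 to -0.55. Shares outside the gonadal types were 5.38, 2.52, 2.88 and 3.65% and among cells of at least 5000 UMIs 6.44, 3.24, 3.62 and 2.04%. The difference of genes with a site at E11.5 was -0.021 with 7-base sites added and -0.021 at a minimum of 500 UMIs, and was 0.25 in the E11.75 sample. Leaving out a run gave 14 to 21 higher and 35 to 104 lower at E11.5, 107 to 156 higher and 39 to 43 lower at E11.75, 11 to 20 higher and 68 to 248 lower in XX, and 4 to 8 higher and 8 to 12 lower in both KO samples, with shares of 3.07 to 4.35% in the XY control, 1.78 to 1.86% at E11.5 and 2.39 to 2.98% in XX. Fewer genes held 100 UMIs when a run was left out. Without run 2 of the XY control there were 35 lower at E11.5 and 107 higher and 43 lower at E11.75. There were then also 69 lower in XX and 8 higher in both KO samples. The genes tested were 7319 at E11.5, 6136 at E11.75, 6788 in XX and 8651 for both KO samples. Without run 1 of the XY control there were 53 lower at E11.5, 39 lower at E11.75 and 68 lower in XX. Then 7467, 6400 and 6983 genes were tested. Without XX run 2 there were 20 higher in XX of 7759 tested, and without XX run 1 there were 248 lower of 7865. Of alternatives chosen after seeing the data, both KO samples without the E11.75 sample became E11.5 alone with 12 higher and 55 lower, without the XX sample there were 6 and 17, and XX without the highest cell of each gene had 4 higher and 180 lower. Low counts limit these values, since 2-fold differences at 100 UMIs can come from few cells.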

Other observations

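H19 was not read in every control cell. Of endothelial cells with at least 5000 UMIs, 91 of 424 in the XY control held 0 H19 UMIs, or 21.5% (17.6 to 25.7%), with 20.0% and 23.1% in its runs, while 186 held at least 10 UMIs. In the XX control 0 of 72 such cells lacked it, for which the exact interval reaches 4.99%, and 63 held at least 10 UMIs. In the KO samples 244 of 248 and 87 of 90 such cells held none. The median level over these cells was 778 CPM in the XY control, with 767 and 798 in its runs, and 1520 CPM in the XX control, where the runs differed, with 1990 and 977. XX cells were deeper. Thinned to 3000 UMIs, 66.8% (62.9 to 70.5%) of XY control cells and 96.25% (89.4 to 99.2%) of XX control cells held a H19 UMI, and thinned to 2000 UMIs 58.6% and 90.3%, so the controls differed at equal depth too. In mesonephric mesenchyme thinned to 3000 UMIs the shares were 55.6% and 92.8%, so this difference was not particular to endothelium.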
